A study of Homo sapiens with 14 samples.

Results

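The array signals of 10 genes of the ATP-binding cassette (ABC) transporter family were followed in U2OS ER-E2F1 cells. The genes were ABCG2, ABCG1, ABCB1, ABCC1, ABCC3, ABCC4, ABCC5, ABCA1, ABCA3 and ABCD3, out of 11963 genes that the array annotation names. All probe sets annotated to 1 of these genes were taken, which gave 15 of the 22215 probe sets that are not array controls. 1 further probe set, shared by ABCB1 and ABCB4, was left unnamed and untested. The genes were proposed with earlier results of the same arrays in view, that is, they were chosen with values from these samples known, ABCG2 by its response to OHT in scrambled cells. That response is therefore given as a description with no test. A probe set is called bright here when its mean signal exceeded 79.1, which is the 40th percentile over single-gene probe sets. Where a gene has several probe sets they are numbered by mean signal, highest first. The members comprised 11 bright probe sets of 8 genes and 4 dim ones, which were the 3 probe sets of ABCA1 and the 1 of ABCA3.

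U2OS is a human osteosarcoma cell line, and ER-E2F1 is the transcription factor E2F1 fused to an estrogen receptor domain, which holds it inactive until 4-hydroxytamoxifen (OHT) is added. Cells stably carrying ER-E2F1 were infected with the lentivirus shFOXO707 or shFOXO33, each aimed at both FOXO1 and FOXO3, or with a virus encoding a scrambled sequence (sh-scr), and were then starved of serum for 24 h. Serum-free medium with 20 nM OHT or without OHT followed for 6 h. The groups were shFOXO707 with OHT (2 arrays), shFOXO33 with OHT (2 arrays), sh-scr with OHT (4 arrays), shFOXO707 without OHT (1 array), shFOXO33 without OHT (1 array) and sh-scr without OHT (4 arrays). All groups thus carried ER-E2F1, a lentivirus and serum starvation, and cells given OHT without ER-E2F1 were not analysed here. Whether the line is 1 clone, and whether replicate arrays came from separate cultures, the sources do not say. All p-values therefore refer to the spread from array to array, which may be technical.

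ABC transporters use the energy of ATP hydrolysis to move substrates across membranes. ABCG2, ABCB1 and several ABCC proteins pump drugs and conjugated metabolites out of cells and are known from multidrug resistance of tumours, osteosarcoma included. ABCA1 and ABCG1 hand cholesterol and phospholipid to lipoproteins under the control of liver X receptors, and ABCD3 carries acyl-CoA substrates into peroxisomes.

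The knockdown was partial. With OHT, shFOXO707 cells kept 47.1% and shFOXO33 cells 32.4% of the FOXO1 signal of scrambled cells, while for FOXO3 they kept 45.1% with shFOXO707 and 17.1% with shFOXO33. Without OHT the order of the hairpins turned for FOXO1, of which the single shFOXO707 array kept 37.9% and the single shFOXO33 array 47.7%, and for FOXO3 the values were 60.9% with shFOXO707 and 30.7% with shFOXO33. The median signal was 115 to 120 on arrays with OHT and 137 to 143 on arrays without OHT, a difference of -0.22 in log2, so that a probe set without any change relative to the others lies slightly below 0 in the contrasts with OHT. The ratio of 3' to 5' signal of the ACTB control probe sets, which rises as RNA degrades, was 1.95 and 2.04 on the shFOXO707 arrays with OHT and 1.49 to 1.74 on the other arrays. Of 7 osteoblast markers measured, 5 were bright, while RUNX2 (16.5 to 46.6) and IBSP (5.54 to 35.2) were dim. Bright markers were not particular to osteoblasts, with 3 of 5 epithelial, 3 of 5 neural, 1 of 6 blood and 1 of 4 hepatocyte markers. Changes below are differences in log2(signal + 16), tested with limma over all 22215 probe sets and called where the Benjamini-Hochberg adjusted p was under 0.05.

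The promoters of the members are shown because E2F and FOXO factors act by binding DNA at promoters and enhancers. RefSeq windows from 250 bases before to 50 bases after a transcription start (build GRCh38.p14) were at hand for 7 of the 10 genes, 12 windows in all, 5 of them for ABCG2. The GC box GGGCGG, on either strand, occurred in 6 of the 12 windows, which belong to ABCG2, ABCC5, ABCA1, ABCA3 and ABCD3, and in 44.95% of all 35116 windows of this length. The E2F motif, searched as TTTCCCGC, TTTCGCGC, TTTGCCGC and TTTGGCGC on both strands, occurred in 0 of the 12 windows and in 3.31% of all windows. The forkhead core GTAAACA, on both strands, occurred in 0 of the 12 windows and in 3.42% of all windows. A missing match says only that these letters are not in these windows. The 3 windows printed here belong to ABCG2, the member with the largest rise, ABCA1, the member with the largest fall, and ABCD3, 1 of the 2 members called between the hairpins with OHT, 5′ to 3′ on the gene's strand, with each GC box (or its complement CCGCCC) in capitals. The ABCG2 window is chr4:88158860-88159159, minus strand, and was the one of the 5 in which both boxes lie within 163 bases before the start. The ABCA1 window is chr9:104928106-104928405, minus strand, and the ABCD3 window is chr1:94418139-94418438, plus strand.
ABCG2: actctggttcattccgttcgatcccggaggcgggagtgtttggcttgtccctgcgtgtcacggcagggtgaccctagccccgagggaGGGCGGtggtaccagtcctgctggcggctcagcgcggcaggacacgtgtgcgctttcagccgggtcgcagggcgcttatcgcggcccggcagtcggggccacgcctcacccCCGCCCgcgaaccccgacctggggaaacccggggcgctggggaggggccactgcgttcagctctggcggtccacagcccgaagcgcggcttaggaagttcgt
ABCA1: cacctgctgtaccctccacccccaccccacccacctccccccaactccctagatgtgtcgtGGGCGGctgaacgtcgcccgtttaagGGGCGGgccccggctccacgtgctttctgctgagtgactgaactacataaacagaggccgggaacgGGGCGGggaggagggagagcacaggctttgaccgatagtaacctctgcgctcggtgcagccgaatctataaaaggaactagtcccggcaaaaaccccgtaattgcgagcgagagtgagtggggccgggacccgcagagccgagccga
ABCD3: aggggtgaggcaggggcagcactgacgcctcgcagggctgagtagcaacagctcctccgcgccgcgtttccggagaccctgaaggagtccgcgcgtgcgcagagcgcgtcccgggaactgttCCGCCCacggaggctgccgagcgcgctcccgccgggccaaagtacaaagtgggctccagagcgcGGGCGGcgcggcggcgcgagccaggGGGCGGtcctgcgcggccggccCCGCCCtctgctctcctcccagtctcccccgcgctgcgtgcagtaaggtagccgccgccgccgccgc
The window of ABCG2 held 2 boxes, that of ABCA1 held 3 and that of ABCD3 held 4, and their GC contents were 70.0%, 62.7% and 75.0%.

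ABCG2, the breast cancer resistance protein, pumps many drugs and urate out of cells. It lies on chromosome 4 from 88090264 to 88231626 and was measured by 1 probe set. Its signals with OHT were 2993 and 3121 in shFOXO707 cells, 4175 and 3822 in shFOXO33 cells, and 3739, 3517, 3671 and 3740 in scrambled cells. Without OHT they were 146 in shFOXO707 cells, 165 in shFOXO33 cells, and 121, 141, 132 and 129 in scrambled cells. All 8 arrays with OHT lay far above all 6 arrays without OHT. In bulk RNA, fewer cells that hold a transcript and less of it per cell cannot be told apart.

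In scrambled cells the mean ABCG2 signal was 3667 ± 105 with OHT and 131 ± 8.0 without OHT (SD, n = 4 each), a ratio of 28.0. The log2 change was 4.65 ± 0.10 (SE), and 3 of the 22215 probe sets rose more. In knockdown cells, with both hairpins pooled, the mean was 3528 ± 565 with OHT (SD, n = 4) and 156 ± 13.5 without OHT (SD, n = 2), a ratio of 22.6. ABCG2 rose there by 4.35 ± 0.12 (SE) with an adjusted p of 4.12e-12, the 5th largest change of all probe sets. The response in knockdown minus that in scrambled cells was -0.30, with a 95% confidence interval from -0.62 to 0.03 (adjusted p = 0.699), so no difference in the response was shown. ABCG2 was proposed for the scrambled response that is subtracted here, so this test is not independent of that choice. With the hairpins apart, ABCG2 rose by 4.24 ± 0.09 (SE) in shFOXO707 cells (adjusted p = 6.34e-13) and by 4.47 ± 0.09 (SE) in shFOXO33 cells (adjusted p = 4.64e-13). Each of these sets 2 arrays against 1, and the lone array is assumed to vary like those of the other groups.

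**Figure D1:**
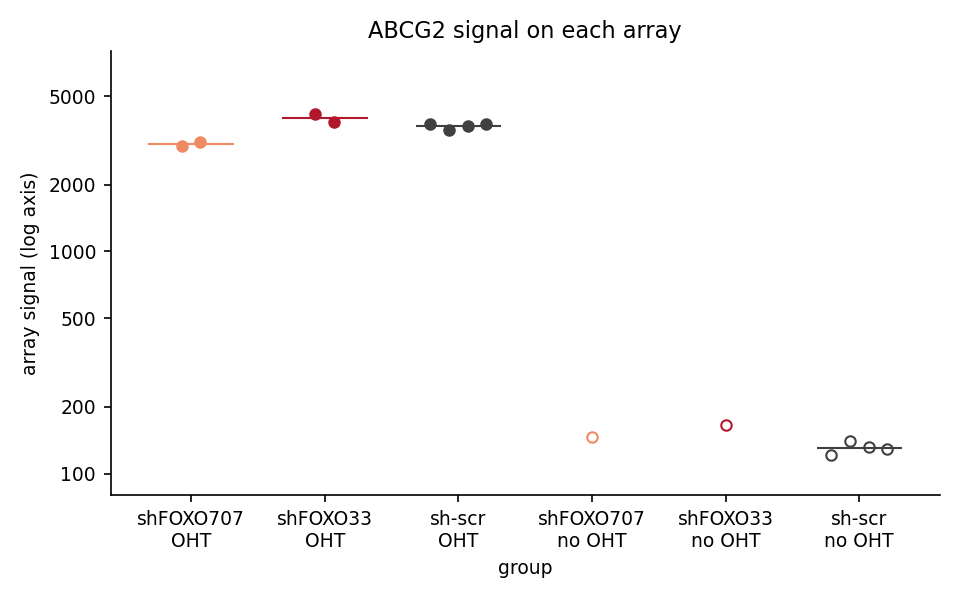
ABCG2 signal on a log axis for each of the 14 arrays, by group, with filled points for OHT, open points for no OHT and a line at the mean of each group of 2 or more arrays. The 8 arrays with OHT lie between 2993 and 4175 and the 6 arrays without OHT between 121 and 165.

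With OHT the ABCG2 level ran from shFOXO33 cells (mean 3998 ± 249, SD, n = 2) through scrambled cells to shFOXO707 cells (mean 3057 ± 90.1, SD, n = 2). The shFOXO707 arrays lay below all scrambled arrays, and the change against scrambled cells was -0.26 ± 0.06 (SE, adjusted p = 0.00637). The shFOXO33 arrays lay above all scrambled arrays, and the change was 0.12 with an interval from -0.01 to 0.25 (adjusted p = 0.172), which was not called. The hairpins differed from each other by -0.38 ± 0.07 (SE), shFOXO707 minus shFOXO33 (adjusted p = 0.000932). Pooled, the knockdown differed from scrambled cells by -0.07 with OHT, with an interval from -0.28 to 0.14 (adjusted p = 0.740). Without OHT the single shFOXO33 array exceeded the scrambled mean by 0.31 ± 0.08 (SE, adjusted p = 0.0167) and the single shFOXO707 array by 0.15 (adjusted p = 0.290).

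Across the 15 probe sets, the median change with OHT in scrambled cells was 0.22, against -0.14 over all probe sets. Nothing is read from this median, since the genes were proposed with this contrast in view. In knockdown cells 5 probe sets of 5 genes were called higher (ABCG2, ABCG1, ABCC1, ABCC4 and ABCD3) and 4 probe sets of 2 genes lower (ABCC5 and the 3 of ABCA1). Over all probe sets 12.4% were called higher and 21.4% lower in knockdown cells. The median change of the members there was 0.24, against -0.14 over all probe sets. The counts and the median in knockdown cells, here and by hairpin below, are a description too. The response of the members there resembled the one known when the genes were proposed. No member was called for a difference between the responses in knockdown and scrambled cells by limma, where 0.122% of all probe sets were called. At an unadjusted p under 0.05 there were also 0, against 7.61% of all probe sets. This difference subtracts the scrambled response known when the genes were proposed, so nothing is read from these counts.

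**Figure D2:**
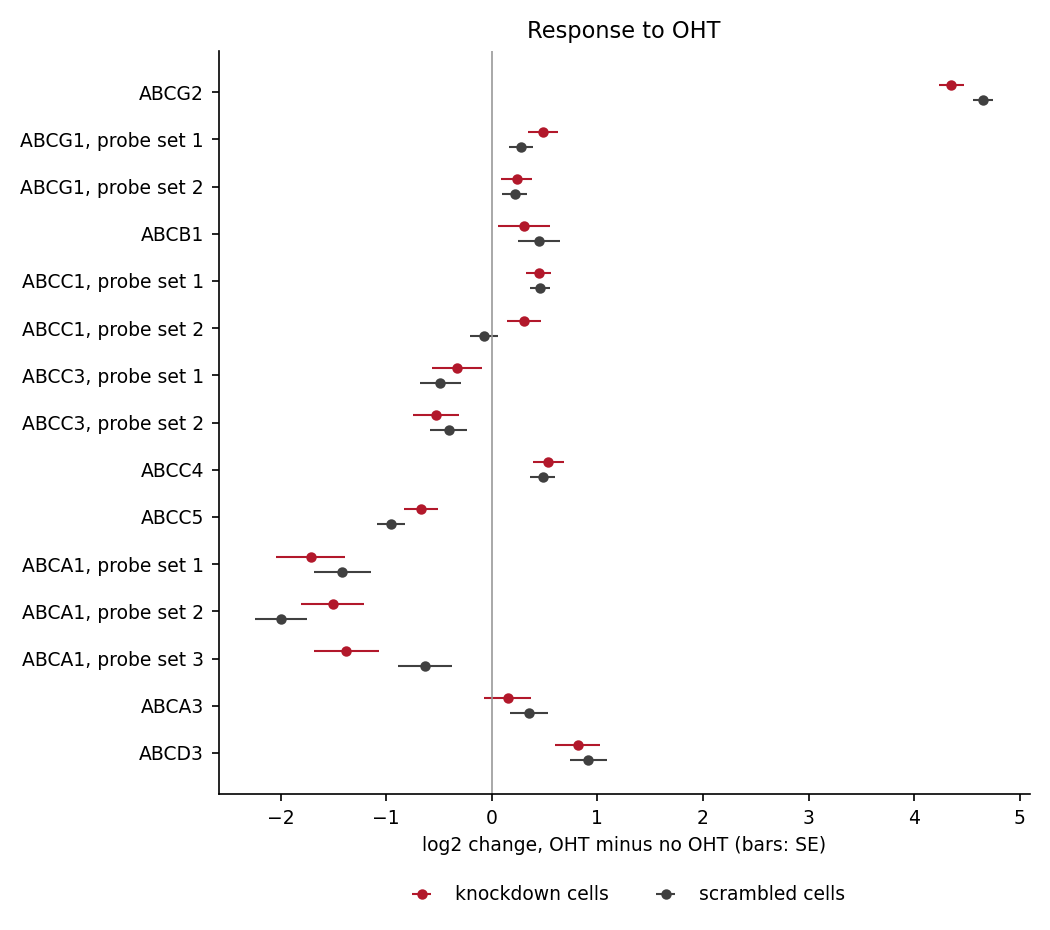
Change with OHT in log2(signal + 16) for each of the 15 probe sets, in knockdown cells (4 arrays against 2, above) and in scrambled cells (4 against 4, below), with bars for the SE. ABCG2 stands at 4.35 in knockdown and 4.65 in scrambled cells, and the next highest member, ABCD3, at 0.82 and 0.91.

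Of the other drug efflux genes, ABCB1 encodes P-glycoprotein, the exporter that gave multidrug resistance its name. Its signals with OHT were 250 and 295 in shFOXO707 cells, 210 and 213 in shFOXO33 cells, and 231, 213, 233 and 228 in scrambled cells. Without OHT they were 292 in shFOXO707 cells, 123 in shFOXO33 cells, and 199, 153, 130 and 172 in scrambled cells. The arrays with OHT lay above those without OHT in scrambled and in shFOXO33 cells, while the shFOXO707 array without OHT lay among the highest of all. ABCB1 differed by 0.45 in scrambled cells and by 0.30 in pooled knockdown cells (adjusted p = 0.392), where it was not called. It rose by 0.71 ± 0.19 (SE) in shFOXO33 cells (adjusted p = 0.00976) and differed by -0.10 in shFOXO707 cells (adjusted p = 0.752). The difference between these 2 responses was not tested and rests on 1 array of each hairpin.

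ABCC1 and ABCC3 are multidrug resistance proteins that export glutathione and glucuronide conjugates. ABCC1 probe set 1 had signals with OHT of 469 and 603 in shFOXO707 cells, 455 and 485 in shFOXO33 cells, and 431, 432, 387 and 444 in scrambled cells. Without OHT it had 379 in shFOXO707 cells, 348 in shFOXO33 cells, and 330, 296, 270 and 323 in scrambled cells. The groups with OHT lay above those without OHT for each virus, and ABCC1 rose by 0.44 ± 0.12 (SE) in knockdown cells (adjusted p = 0.0106) beside a change of 0.46 in scrambled cells. Without the shFOXO33 array that had no OHT, the call in knockdown cells was lost (0.39, adjusted p = 0.0836). ABCC1 probe set 2 stayed between 84.7 and 136 on all arrays and differed by 0.30 in knockdown cells (adjusted p = 0.175) and by -0.08 in scrambled cells.

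ABCC3 was measured by 2 bright probe sets. Probe set 1 had signals with OHT of 199 and 232 in shFOXO707 cells, 188 and 150 in shFOXO33 cells, and 182, 186, 160 and 222 in scrambled cells. Without OHT it had 351 in shFOXO707 cells, 167 in shFOXO33 cells, and 323, 259, 218 and 278 in scrambled cells. The values with and without OHT overlapped in scrambled cells by 1 array, and the 2 hairpins without OHT stood at opposite ends. The change was -0.33 in pooled knockdown cells (adjusted p = 0.334), -0.67 in shFOXO707 cells (adjusted p = 0.0274) and 0.01 in shFOXO33 cells (adjusted p = 0.985). Probe set 2 gave -0.53 in pooled knockdown cells (adjusted p = 0.0775), -0.86 in shFOXO707 cells (adjusted p = 0.0134) and -0.20 in shFOXO33 cells (adjusted p = 0.615). In scrambled cells the changes were -0.49 and -0.41.

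ABCC4 exports cyclic nucleotides, prostaglandins and urate. Its signals with OHT were 631 and 545 in shFOXO707 cells, 440 and 521 in shFOXO33 cells, and 394, 414, 431 and 344 in scrambled cells. Without OHT they were 317 in shFOXO707 cells, 410 in shFOXO33 cells, and 290, 249, 303 and 272 in scrambled cells. All knockdown arrays lay above all scrambled arrays of the same treatment. ABCC4 rose with OHT by 0.53 ± 0.15 (SE) in knockdown cells (adjusted p = 0.0101), beside 0.48 in scrambled cells. By hairpin, the rise was 0.85 ± 0.15 (SE) in shFOXO707 cells (adjusted p = 0.000456), and the difference was 0.22 in shFOXO33 cells (adjusted p = 0.330). The call in pooled knockdown cells was lost without the shFOXO707 array that had no OHT (0.36, adjusted p = 0.157).

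ABCC5 exports cyclic nucleotides and nucleotide analogues. Its signals with OHT were 202 and 187 in shFOXO707 cells, 217 and 242 in shFOXO33 cells, and 113, 176, 141 and 176 in scrambled cells. Without OHT they were 318 in shFOXO707 cells, 374 in shFOXO33 cells, and 300, 321, 281 and 315 in scrambled cells. All 8 arrays with OHT lay below all 6 arrays without OHT. ABCC5 fell by 0.67 ± 0.16 (SE) in knockdown cells (log2, adjusted p = 0.00485), beside a change of -0.95 in scrambled cells. Without the shFOXO33 array that had no OHT the call was lost (-0.56, adjusted p = 0.0624), and so it was with each array centred on its own median (-0.44, adjusted p = 0.0559).

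ABCC4 and ABCC5 were the 2 members called between knockdown and scrambled cells with OHT, both higher, where 6.1% of all probe sets were called higher and 3.95% lower. The mean ABCC4 signal was 534 ± 78.9 in knockdown and 396 ± 37.6 in scrambled cells with OHT (SD, n = 4 each), a log2 difference of 0.41 ± 0.12 (SE, adjusted p = 0.0415). The mean ABCC5 signal was 212 ± 23.8 in knockdown and 151 ± 30.8 in scrambled cells with OHT (SD, n = 4 each), a log2 difference of 0.46 ± 0.13 (SE, adjusted p = 0.0409). Both calls sat close to the threshold. ABCC4 kept its call when 4 of the 14 arrays were left out in turn and lost it with the other 10 (adjusted p = 0.0522 to 0.127). The 10 were scrambled replicates 1, 3 and 4 without OHT, all 4 scrambled replicates with OHT, shFOXO33 replicate 2 with OHT and both shFOXO707 replicates with OHT. ABCC5 kept its call with 5 arrays left out in turn and lost it with the other 9 (adjusted p = 0.0538 to 0.116), which were all 4 scrambled replicates without OHT, scrambled replicates 1 and 3 with OHT, both shFOXO33 replicates with OHT and shFOXO707 replicate 1 with OHT. With each array centred on its median the adjusted p was 0.0644 for ABCC4 and 0.0628 for ABCC5. With the replicate number as a block, a fit limited to the OHT arrays numbered 1 and 2, it was 0.474 and 0.413. The same arrays without the block gave 0.333 and 0.305.

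With the hairpins set apart against scrambled cells with OHT, ABCC4 rose by 0.55 ± 0.11 (SE) with shFOXO707 (adjusted p = 0.00179) and differed by 0.27 with shFOXO33 (adjusted p = 0.0887). ABCC5 differed by 0.35 with shFOXO707 (adjusted p = 0.117) and rose by 0.57 ± 0.15 (SE) with shFOXO33 (adjusted p = 0.00907). The other members called with shFOXO707 were ABCC1 (0.32, adjusted p = 0.0448) and ABCG2, and with shFOXO33 ABCD3. In all, 3 of 15 probe sets were called with shFOXO707, against 20.5% of all probe sets, and 2 with shFOXO33, against 25.3%. The hairpins differed from each other in ABCG2 and ABCD3, 2 of 15 probe sets, against 22.0% of all.

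**Figure D3:**
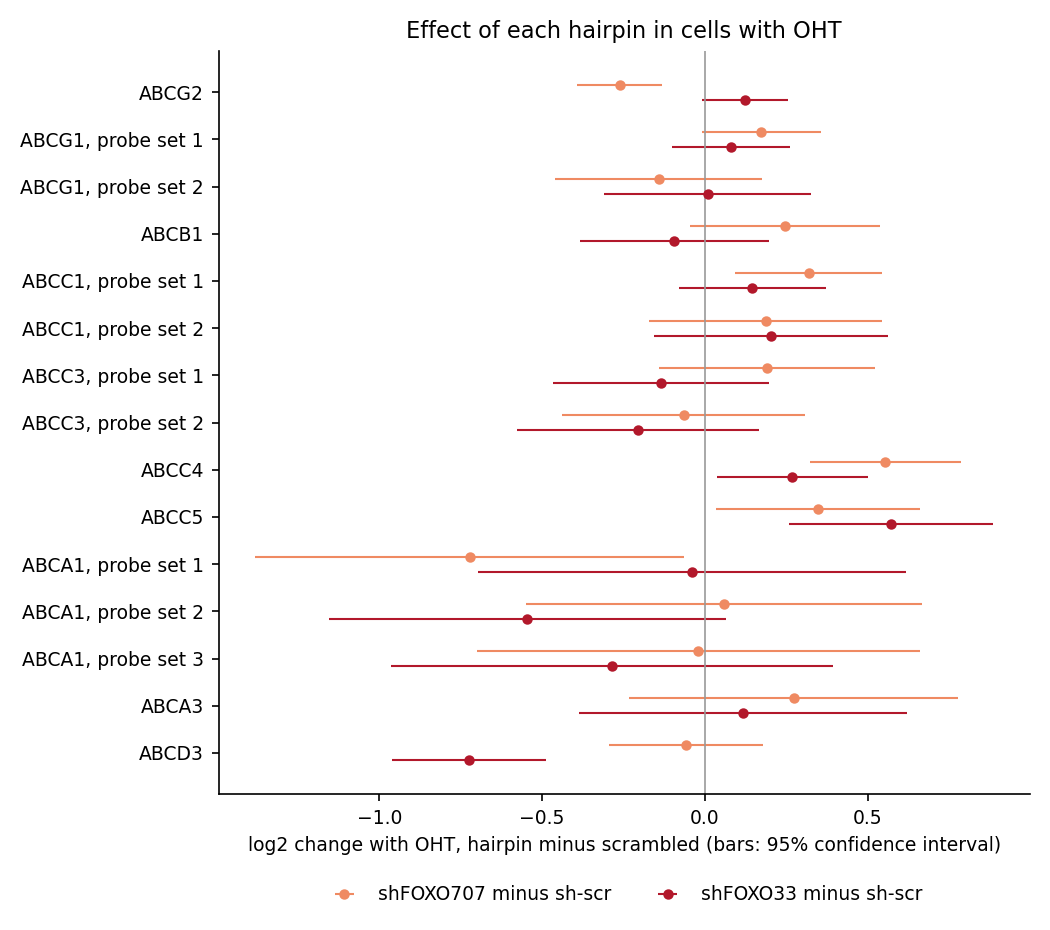
Difference from scrambled cells with OHT, in log2(signal + 16), for each of the 15 probe sets in shFOXO707 cells (upper point) and shFOXO33 cells (lower point), 2 arrays each against 4, with 95% confidence intervals. ABCG2 stands at -0.26 with shFOXO707 and 0.12 with shFOXO33, and ABCD3 at -0.06 with shFOXO707 and at its lowest with shFOXO33.

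ABCD3, a peroxisomal membrane transporter also known as PMP70, lies on chromosome 1 from 94385131 to 94518663. Its signals with OHT were 4259 and 4807 in shFOXO707 cells, 3134 and 2584 in shFOXO33 cells, and 4481, 5146, 5156 and 4154 in scrambled cells. Without OHT they were 2472 in shFOXO707 cells, 1669 in shFOXO33 cells, and 2119, 2744, 2563 and 2600 in scrambled cells. The shFOXO33 arrays lay below all others of the same treatment, and those of shFOXO707 lay within the scrambled range. In scrambled cells the mean was 4734 ± 499 with OHT and 2506 ± 270 without OHT (SD, n = 4 each), a ratio of 1.89.

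ABCD3 rose with OHT by 0.82 ± 0.21 (SE) in pooled knockdown cells (adjusted p = 0.00802), by 0.87 ± 0.16 (SE) in shFOXO707 cells (adjusted p = 0.000463) and by 0.76 ± 0.16 (SE) in shFOXO33 cells (adjusted p = 0.00131). The pooled call was lost without the shFOXO33 array that had no OHT (0.54, adjusted p = 0.142). With OHT, ABCD3 was 0.67 ± 0.13 (SE) higher in shFOXO707 than in shFOXO33 cells (adjusted p = 0.00130). Against scrambled cells with OHT it differed by -0.06 in shFOXO707 cells, with an interval from -0.29 to 0.18 (adjusted p = 0.796). The interval in shFOXO33 cells ran from -0.96 to -0.49 (adjusted p = 0.000174). Without OHT the shFOXO33 array differed from scrambled cells by -0.58 ± 0.14 (SE, adjusted p = 0.0134).

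Other measures also differed between the hairpins with OHT. The mean FOXO1 signal was 236 in shFOXO707 and 163 in shFOXO33 cells, and the mean FOXO3 signal was 810 in shFOXO707 and 307 in shFOXO33 cells. The ACTB 3'/5' ratio was 2.0 ± 0.06 in shFOXO707 and 1.61 ± 0.02 in shFOXO33 cells (SD, n = 2 each). The summed signal of 5 epithelial markers, of which EPCAM, KRT8 and KRT18 were bright, was 3469 to 3556 in shFOXO707 and 5868 to 6221 in shFOXO33 cells, with 5154 to 5436 in scrambled cells with OHT. The sums of 6 blood markers, 1 of them bright, were 386 to 390 in shFOXO707 and 471 to 507 in shFOXO33 cells. Those of 5 neural markers, 3 of them bright, were 10931 to 11762 in shFOXO707 and 10409 to 10636 in shFOXO33 cells. The sums of osteoblast and of hepatocyte markers overlapped between the hairpins. The part of any of these measures in the hairpin differences was not tested.

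Of the 2 cholesterol transporters, ABCA1, which loads cholesterol onto apolipoprotein A-I, lies on chromosome 9 from 104781006 to 104928155 and was dim on all 3 of its probe sets. On probe set 2 it had signals with OHT of 11.5 and 27.9 in shFOXO707 cells, 2.21 and 12.7 in shFOXO33 cells, and 24.1, 18.7, 12.9 and 14.8 in scrambled cells. Without OHT it had 57.4 in shFOXO707 cells, 71.3 in shFOXO33 cells, and 112, 140, 147 and 79.3 in scrambled cells. All arrays with OHT lay below all arrays without OHT.

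On probe set 1, annotated with the same transcript record, ABCA1 had signals with OHT of 1.5 and 15.7 in shFOXO707 cells, 15.7 and 29.2 in shFOXO33 cells, and 28.0, 14.1, 36.2 and 17.1 in scrambled cells. Without OHT it had 87.6 in shFOXO707 cells, 76.7 in shFOXO33 cells, and 80.7, 120, 91.8 and 65.5 in scrambled cells. These also did not overlap. Probe set 3 ranged from 3.72 to 29.8 with OHT and from 21.0 to 53.4 without OHT, and overlapped in scrambled cells through replicate 3 with OHT.

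ABCA1 fell in knockdown cells on all 3 probe sets. The log2 changes were -1.71 ± 0.33 on probe set 1 (SE, adjusted p = 0.000872), -1.51 ± 0.30 on probe set 2 (SE, adjusted p = 0.00119) and -1.38 ± 0.31 on probe set 3 (SE, adjusted p = 0.00287). In scrambled cells they were -1.42 on probe set 1, -1.99 on probe set 2 and -0.63 on probe set 3. At signals near the added constant of 16 these changes understate a fold change, and the mean of probe set 2 was 17.6 ± 4.97 with OHT and 120 ± 30.8 without OHT in scrambled cells (SD, n = 4 each). By hairpin, probe set 2 differed by -1.08 in shFOXO707 cells (adjusted p = 0.0504) and fell by 1.93 ± 0.40 (SE) in shFOXO33 cells (adjusted p = 0.00152). Knockdown against scrambled cells gave no call for ABCA1 with or without OHT.

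ABCG1 moves sterols to high density lipoprotein. Its probe set 1 had signals with OHT of 407 and 456 in shFOXO707 cells, 430 and 378 in shFOXO33 cells, and 364, 378, 369 and 413 in scrambled cells. Without OHT it had 368 in shFOXO707 cells, 232 in shFOXO33 cells, and 298, 305, 329 and 314 in scrambled cells. The arrays with OHT lay above those without OHT for each virus. ABCG1 rose by 0.49 ± 0.14 (SE) in knockdown cells (adjusted p = 0.0151), beside 0.28 in scrambled cells. Without the shFOXO33 array that had no OHT, which was the lowest of all, the change was 0.17 (adjusted p = 0.351), and with shFOXO707 as the only hairpin it was 0.22 (adjusted p = 0.178). Probe set 2 ranged from 87.5 to 122 over all arrays and differed by 0.24 in knockdown cells (adjusted p = 0.242).

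ABCA3, which fills the lamellar bodies of lung alveolar cells with surfactant lipid, was dim and showed no call. Its signals ranged from 59.7 to 106 on the 8 arrays with OHT and from 38.5 to 80.5 on the 6 without OHT. The change was 0.15 in knockdown cells, with an interval from -0.33 to 0.63 (adjusted p = 0.666), and 0.35 in scrambled cells.

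**Figure D4:**
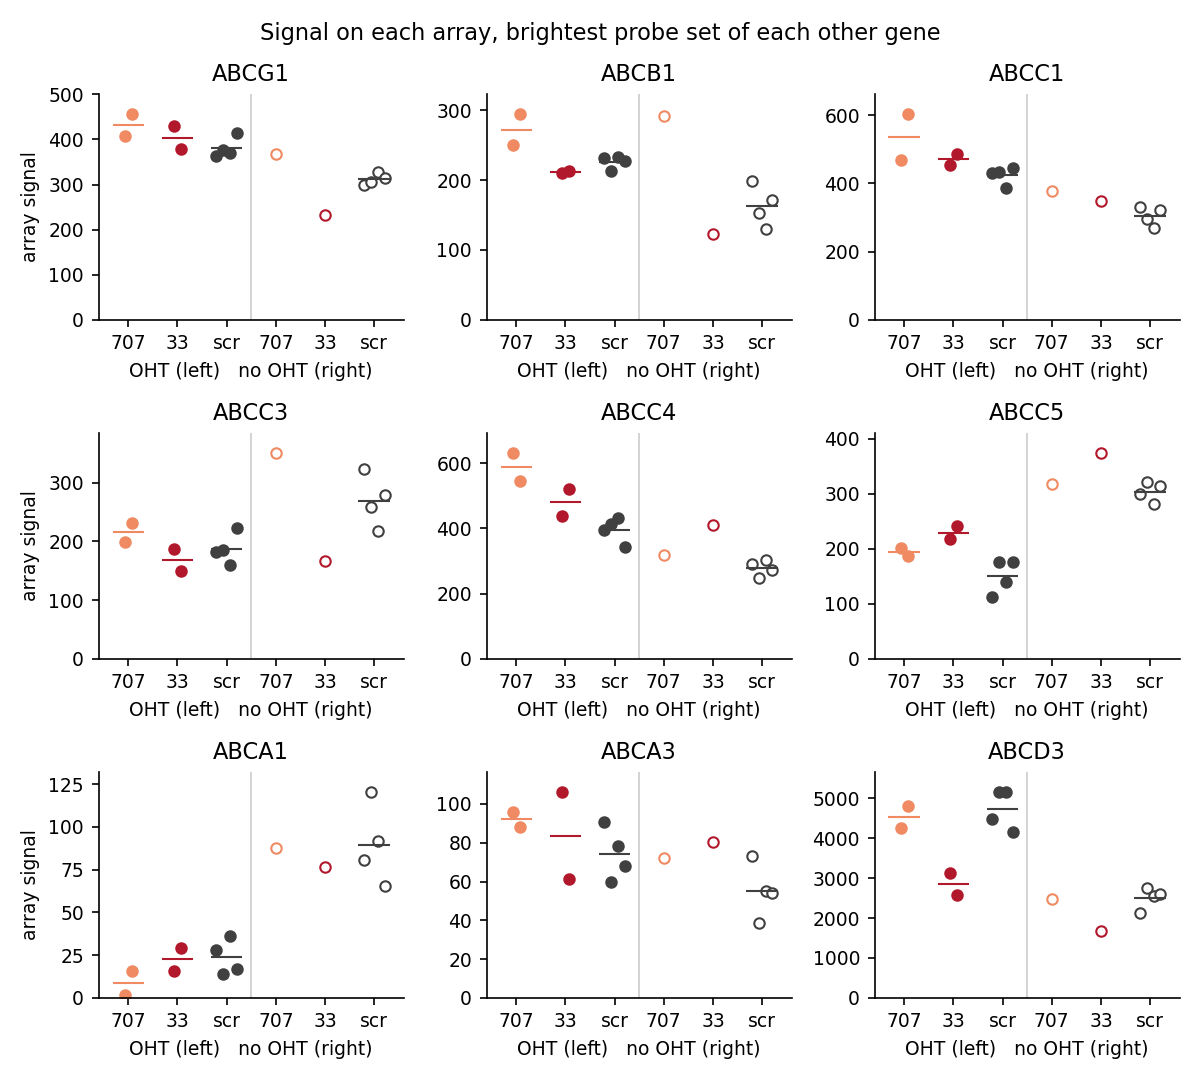
Signal on each array for the brightest probe set of the 9 genes other than ABCG2, each panel on its own axis from 0, with filled points for OHT (left) and open points for no OHT (right), the hairpins abbreviated to their numbers, and a line at the mean of each group of 2 or more arrays. ABCC5 and ABCA1 lie lower with OHT for each virus, and ABCD3 lies lowest in shFOXO33 cells with and without OHT.

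By hairpin, 4 member probe sets were called higher and 5 lower in shFOXO707 cells, where 13.1% and 22.0% of all probe sets were called higher and lower. In shFOXO33 cells 5 were called higher and 4 lower, where 12.4% and 21.3% of all were. ABCG2, ABCC1 and ABCD3 were called higher, and ABCC5 and 2 ABCA1 probe sets or more lower, in both. ABCG1 rose in shFOXO33 cells (0.76, adjusted p = 0.000162) and was not called in shFOXO707 cells (0.22, adjusted p = 0.190).

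Without OHT, knockdown against scrambled cells gave 0 calls among the members by limma, where 3.16% of all probe sets were called. At an unadjusted p under 0.05 there were 2 of 15, against 14.9% of all probe sets, a share near that background. These 2 were ABCC4 (0.36, adjusted p = 0.250) and ABCA1 probe set 2 (-0.73, adjusted p = 0.260). With the hairpins apart, the single shFOXO707 array was called higher in ABCB1 (0.79, adjusted p = 0.00706), 1 of 15 probe sets, against 12.7% of all. The single shFOXO33 array was called higher in ABCG2 and ABCC4 (0.54, adjusted p = 0.0184) and lower in ABCG1 (-0.40, adjusted p = 0.0236), ABCC3 (-0.63, adjusted p = 0.0492) and ABCD3, 5 of 15, against 14.3% of all. Each of these calls rests on 1 array.

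Of 27 other ABC genes on the array, 12 of them bright, 2 were called higher and 5 lower with OHT in knockdown cells, and their median change was -0.31 beside -0.14 for all probe sets. Over all probe sets 12.4% were called higher and 21.4% lower in this contrast, and the counts of these genes were no larger a share. ABCA5, a lysosomal ABC protein, rose by 2.54 ± 0.14 (SE) (adjusted p = 5.32e-09), with a mean signal of 1186 with OHT and 192 without OHT in knockdown cells. TAP1, a subunit of the peptide transporter of antigen presentation, rose by 1.06 ± 0.09 (SE) (adjusted p = 7.03e-07). Among those that fell were ABCD4 (-1.20, adjusted p = 0.000311), a lysosomal protein of cobalamin handling, and ABCF3 (-0.54, adjusted p = 0.00383). TAP1 was lower in knockdown than in scrambled cells, by log2 differences of -0.27 with OHT (adjusted p = 0.0368) and -0.41 in its absence (adjusted p = 0.0277), and no other gene of this list was called in either comparison.

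**Figure D5:**
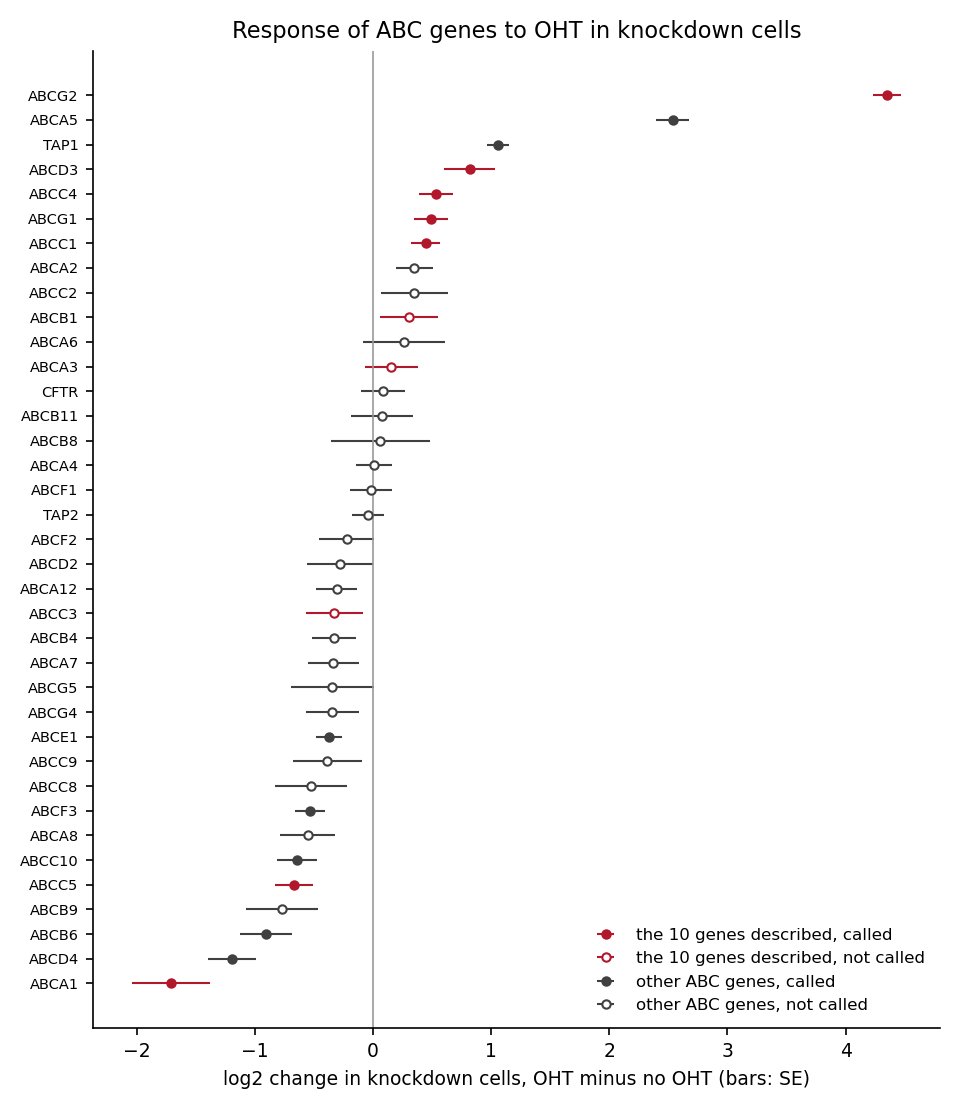
Change with OHT in knockdown cells, in log2(signal + 16) with SE bars, for the brightest probe set of each of the 10 genes described and of 27 other ABC genes, ordered by change, with filled points for genes called at an adjusted p under 0.05. ABCG2 (4.35) and ABCA5 (2.54) lie above all others, and ABCA1 (-1.71) lies lowest.

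The nuclear receptors and other factors that regulate ABC genes were measured for 19 genes. With OHT in knockdown cells 3 were called higher and 4 lower, against 12.4% higher and 21.4% lower over all probe sets. The 3 were EPAS1 (2.62, adjusted p = 3.12e-08), the hypoxia factor HIF-2 alpha, RXRA (1.92, adjusted p = 4.82e-07), a partner of liver X receptors, and PPARG (0.89, adjusted p = 1.51e-05). The 4 were PPARD (-1.18, adjusted p = 3.92e-07), RXRB (-0.89, adjusted p = 4.92e-05), NR1H3 (-0.99, adjusted p = 7.64e-05), a liver X receptor, and SREBF1 (-0.37, adjusted p = 0.0147). Between knockdown and scrambled cells with OHT 4 of the 19 were called, all higher, against 6.1% higher and 3.95% lower over all probe sets, with PPARD at 0.86 (adjusted p = 1.65e-05) and SREBF1 at 0.50 (adjusted p = 0.00226). Their median there was 0.19, beside 0.04 for all probe sets.

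Of 12 genes of sterol efflux and the liver X receptor pathway, the setting of ABCA1 and ABCG1, 1 was called higher and 6 lower with OHT in knockdown cells (median -0.36), against 12.4% higher and 21.4% lower over all probe sets. SOAT1, which esterifies cholesterol, rose by 0.99 (adjusted p = 0.000110), while MYLIP, a ligase that degrades the LDL receptor, changed by -1.02 (adjusted p = 5.37e-05) and NPC1, which exports lysosomal cholesterol, by -0.78 (adjusted p = 0.000446). Between knockdown and scrambled cells with OHT, 3 of the 12 were called higher and 2 lower, against 6.1% higher and 3.95% lower over all probe sets. SCD, a fatty acid desaturase (-1.31, adjusted p = 3.31e-06), and NPC2 (-0.345, adjusted p = 0.000696) were lower in knockdown cells. LIPA (0.62, adjusted p = 0.000587) and STARD3 (0.48, adjusted p = 0.0373) were among the higher ones. SCD was lower in knockdown cells without OHT too (-1.32, adjusted p = 5.32e-05). Of 15 peroxisome genes, the setting of ABCD3, 1 was called higher and 8 lower with OHT in knockdown cells (median -0.54), against the same 12.4% and 21.4%, among them PXMP2 (0.81, adjusted p = 0.000572), a channel of the peroxisomal membrane, and PEX2 (-0.56, adjusted p = 0.00101) and PEX5 (-0.70, adjusted p = 0.00109), of peroxisomal protein import. Between the hairpins with OHT, 6 of the 15 were called higher and 3 lower in shFOXO707 than in shFOXO33 cells, against 22.0% of all probe sets called either way. CAT, the peroxisomal catalase, was 1.13 higher in shFOXO707 cells (adjusted p = 3.7e-10), the direction of ABCD3. PEX7 (1.04, adjusted p = 0.000206), PEX14 (0.615, adjusted p = 0.000294) and PEX26 (0.88, adjusted p = 0.00053) followed by p and went the same way. The 3 called lower, PEX19 (-0.55, adjusted p = 0.000843), HSD17B4 (-0.34, adjusted p = 0.00393) and PXMP2 (-0.24, adjusted p = 0.0220), went the other way.

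Of 19 genes listed for glutathione and drug conjugation, not all of which make substrates of ABCC transporters, 3 were called higher and 13 lower with OHT in knockdown cells (median -0.29). Again 12.4% of all probe sets were called higher and 21.4% lower. UGT8, a galactosyltransferase of sphingolipid synthesis, rose by 2.27 (adjusted p = 9e-09), GSR, glutathione reductase, by 0.86 (adjusted p = 3.12e-05) and MGST3, a microsomal glutathione transferase, by 0.51 (adjusted p = 7.39e-05), while GSTA4 changed by -0.41 (adjusted p = 0.00151). None was called by limma between knockdown and scrambled cells with OHT.

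Among 7719 genes above the brightness level, the pattern most like that of ABCG2 over the 14 arrays was that of RANBP9 (Pearson r = 0.999), followed by LEF1, ADCK2, RBM14 and MARK1 (all 0.998). The lowest coefficients were those of TM4SF1 (-0.998), CCDC90B and ARID5B (both -0.996). The arrays fall into those with and without OHT, so these coefficients mainly describe that contrast. Within the 8 arrays with OHT the coefficient with ABCG2 was 0.92 for LEF1 and 0.71 for RANBP9. Among the bright members it was highest for ABCC1 (0.83) and lowest for ABCC5 (-0.84) over the 14 arrays. Within the 8 arrays with OHT it ran from -0.78 for ABCB1 to -0.02 for ABCC5, with -0.47 for ABCC1. The share of all genes with a coefficient below 0 in these arrays is not given here. ABCG2 itself was ordered by virus in them, with means of 3998 in shFOXO33, 3667 in scrambled and 3057 in shFOXO707 cells. Nothing on shared or opposed regulation is read from these coefficients.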

How the data were processed

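Expression was measured on 14 Affymetrix arrays, grouped by sample title. The deposited values are 1 linear intensity per probe set and array, computed by the authors. The submitters' processing notes name MAS5, and its version is not stated in the sources used here. Each of the 14 arrays had a mean of 500 once its lowest and highest 2% were left out. No detection calls or probe-level values were used, and precision is limited by the number of arrays.

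Of 22277 probe sets, 62 controls were left out. The platform annotation paired 19064 of the rest with 1 gene, 1043 with several and 2108 with none, and a RefSeq table (GRCh38.p14), the source of gene coordinates, gave current symbols for 19058 of them by Entrez identifier. Intensities were transformed as log2(signal + 16) and fitted with limma 3.58.1 in R 4.3.3 (lmFit, eBayes with trend) over all 22215 probe sets, two-sided, with Benjamini-Hochberg adjustment and a threshold of 0.05. 4 groups with pooled hairpins served the contrasts of OHT and knockdown, so that arrays of 1 hairpin counted as separate replicates. 6 groups served the contrasts of single hairpins, where a lone array is assumed to vary like the other groups. The fit was tested on simulated data.

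The members and all lists were chosen with earlier results of these data known. All member probe sets are named. List genes are named when among the 4 smallest adjusted p-values of a contrast, through their brightest probe set, and genes of like pattern when among the 5 highest or 3 lowest coefficients with ABCG2. Also named are the peroxisome genes called lower in shFOXO707 than in shFOXO33 cells and the regulators of ABC genes called lower with OHT in knockdown cells. Normalization, pseudocount, variance prior, dim probe sets, grouping, hairpin, single arrays and the replicate number were varied.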

Additional observations from a re-analysis of the deposited data

Results flagged for a closer look

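ABCG2 and ABCD3 were the members for which the effects of the 2 hairpins with OHT differed from each other in limma's fit with 6 groups. The difference, shFOXO707 minus shFOXO33, was -0.384 for ABCG2 (adjusted p = 0.000932) and 0.666 for ABCD3 (adjusted p = 0.00130) on the log2 scale, and in both cases neither array of one hairpin overlapped with those of the other.

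In 2 of 30 groups of 4 scrambled arrays, 1 array lay apart from the other 3 by more than Dixon's critical value, where chance alone marks about 1 in 20 groups. For ABCC3 probe set 2, replicate 1 without OHT (202) lay above the others (146 to 153), with a gap of 0.869 of the group's range. For ABCA1 probe set 3, replicate 3 with OHT (29.8) lay above the others (5.02 to 6.50), with a gap of 0.913 of the range.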

How the results depend on the processing

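Leaving aside OHT in scrambled cells, 13 of 75 log2 changes were called. Over all probe sets 12.4% were called higher and 21.4% lower with OHT in knockdown cells. For knockdown against scrambled cells with OHT these shares were 6.1% and 3.95%. Called either way were 22.0% between the hairpins, 3.16% for knockdown without OHT and 0.122% for the difference of responses. Of these 13 changes, 6 kept their call under the 22 to 24 alternatives run for each and 0 reversed while called. The 6 were ABCG2 and all 3 ABCA1 probe sets with OHT in knockdown cells and the hairpin differences of ABCG2 and ABCD3. The count of member probe sets called for OHT in scrambled cells, 7, became 11 with each array centred on its median, with quantile normalization, with 6 groups, with shFOXO707 as the only hairpin and with the replicate block, and 12 with shFOXO33 as the only hairpin, and ranged from 7 to 11 without single arrays. The 2 calls between knockdown and scrambled cells with OHT became 0 with median centring, quantile normalization, no trend in the variance prior and the replicate block, and 0 to 2 without single arrays. That block was fitted only to the OHT arrays numbered 1 and 2. The calls also became 0 with these arrays and no block, an alternative chosen after seeing the data. The 0 calls without OHT became 2 with 6 groups, 4 with shFOXO33 as the only hairpin and 1 with shFOXO707 as the only hairpin. Deviations of arrays sharing a replicate number correlated at -0.01 to 0.017 over all probe sets, so no pairing by number was visible. How the arrays were made cannot be settled this way. No block could be fitted for contrasts that use hairpin arrays without OHT, whose titles carry no number. The cause of the lost and gained calls was not tested. Without detection calls, the level of dim probe sets (ABCA1, ABCA3) over background is unknown.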
